A study of Mus musculus with 23 samples.

Results

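Day 6 primordial germ cell-like cells (PGCLCs), made in culture, were compared gene by gene with primordial germ cells (PGCs) taken from mouse embryos at E12.5. The members were the genes with at least 1 FPKM (fragments per kilobase of transcript, scaled to the mapped fragments) in either group. They numbered 11496 of the 22784 gene symbols in the table. Of these, 9991 reached 1 FPKM in both groups, 646 in day 6 PGCLCs only and 859 in E12.5 PGCs only. The deposited table gave 1 value per gene and group, so no difference below has a replicate check, an error or a p-value. At the edge of the filter, 144 kept genes had a higher value between 1 and 1.1 FPKM, and 188 genes between 0.9 and 1 FPKM were left out.

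Day 6 PGCLCs (2 samples, strain C57BL/6 X 129) were induced for 6 days from female epiblast-like cells (EpiLCs), sorted by flow cytometry and taken at 10000 cells per library. E12.5 PGCs (3 samples, strain B6D2F1) were sorted from embryos by the BVSC reporter transgenes, which read out Blimp1 (Prdm1) and stella (Dppa3), so the levels of Prdm1 and Dppa3 bear on how these cells were chosen. For E12.5 PGCs the labels state neither sex nor cell input. Beside them stand female embryonic stem (ES) cells kept in 2i+LIF (3 samples) and reaggregated PGCLCs (3 samples, C57BL/6 X 129), cultured for 3 days with gonadal somatic cells of female E12.5 embryos at 5300 to 15000 cells per library. Strain, culture and developmental age differ together between day 6 PGCLCs and E12.5 PGCs, and their parts cannot be told apart. These were bulk poly(A) libraries, in which fewer cells of a type and less RNA per cell cannot be told apart, and their read depth is unknown. The whole series held 23 samples in 8 groups.

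Mouse PGCs are set aside from the epiblast by BMP and WNT signals through Prdm1, Prdm14 and Tfap2c, and they keep part of the pluripotency programme while they migrate. They lose most DNA methylation by the time they are gonadal. Once in the gonad they switch on genes of germ cell identity such as Dazl and Ddx4, and in females enter meiosis under retinoic acid and BMP. PGCLCs at day 6 are widely held to resemble PGCs before they settle in the gonad. E12.5 PGCs are gonadal.

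By the labelled cell type, germ cell markers were present in both groups. Dnd1, which protects germ cell mRNAs, had 162 FPKM in day 6 PGCLCs and 144 FPKM in E12.5 PGCs, and 5.03 FPKM in ES cells. Dppa3, a maternal factor that marks PGCs, had 228 FPKM in day 6 PGCLCs and 176 FPKM in E12.5 PGCs, and 17.2 FPKM in ES cells. Nanos3, needed for PGC survival, had 35.1 FPKM in day 6 PGCLCs and 20.3 FPKM in E12.5 PGCs, and 1.85 FPKM in ES cells. All 3 stood far above ES cells in both germ cell groups, and Prdm1, Dazl and Ddx4 were above ES cells in both as well. Other germ cell markers were closer to ES cells. Prdm14, Tfap2c and Kit had 40.3, 97.8 and 84.0 FPKM in day 6 PGCLCs. They had 17.3, 47.9 and 56.5 FPKM in E12.5 PGCs, and 21.4, 26.4 and 43.2 FPKM in ES cells. The Y-linked genes Uty, Eif2s3y and Kdm5d were listed at 0 in day 6 PGCLCs and in E12.5 PGCs, and Ddx3y had 0.00217 FPKM in day 6 PGCLCs and was listed at 0 in E12.5 PGCs. A value of 0 in this table can be a failed estimate, because Eno1, Rpl26 and Ndufs5, used by every cell, are listed at 0 in both groups, and Gapdh had 0.151 FPKM in day 6 PGCLCs and 0.288 FPKM in E12.5 PGCs.

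The measure was log2(FPKM + 1) in day 6 PGCLCs minus that in E12.5 PGCs, and a difference of at least 1 or at most -1, that is 2-fold on this scale, made a gene higher or lower. The scale understates differences of low genes. By this rule 1217 genes (10.6%) were higher and 1021 (8.88%) lower in day 6 PGCLCs, 19.5% in all, and 9258 were within 2-fold. The median difference over all genes was 0.06. The split moved with the scaling: with both columns scaled to equal sums, 923 genes were higher and 1344 lower, and the median difference was -0.11, since the summed FPKM was 317507 in day 6 PGCLCs and 277996 in E12.5 PGCs. Among the genes at 1 FPKM or more in both groups, 920 (9.21%) were higher and 576 (5.77%) lower. These shares are the ones to set beside list counts at 1 FPKM in both groups below. A gene that passed the filter through a single group had a head start towards a call, and 297 of the 646 genes from day 6 PGCLCs were higher and 445 of the 859 from E12.5 PGCs were lower. Past 8-fold, 27 genes were higher and 29 lower. The filter and the call rule together fix the call of a tested gene listed at 0, and 29 such genes in day 6 PGCLCs counted as lower and 7 in E12.5 PGCs as higher.

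**Figure D1:**
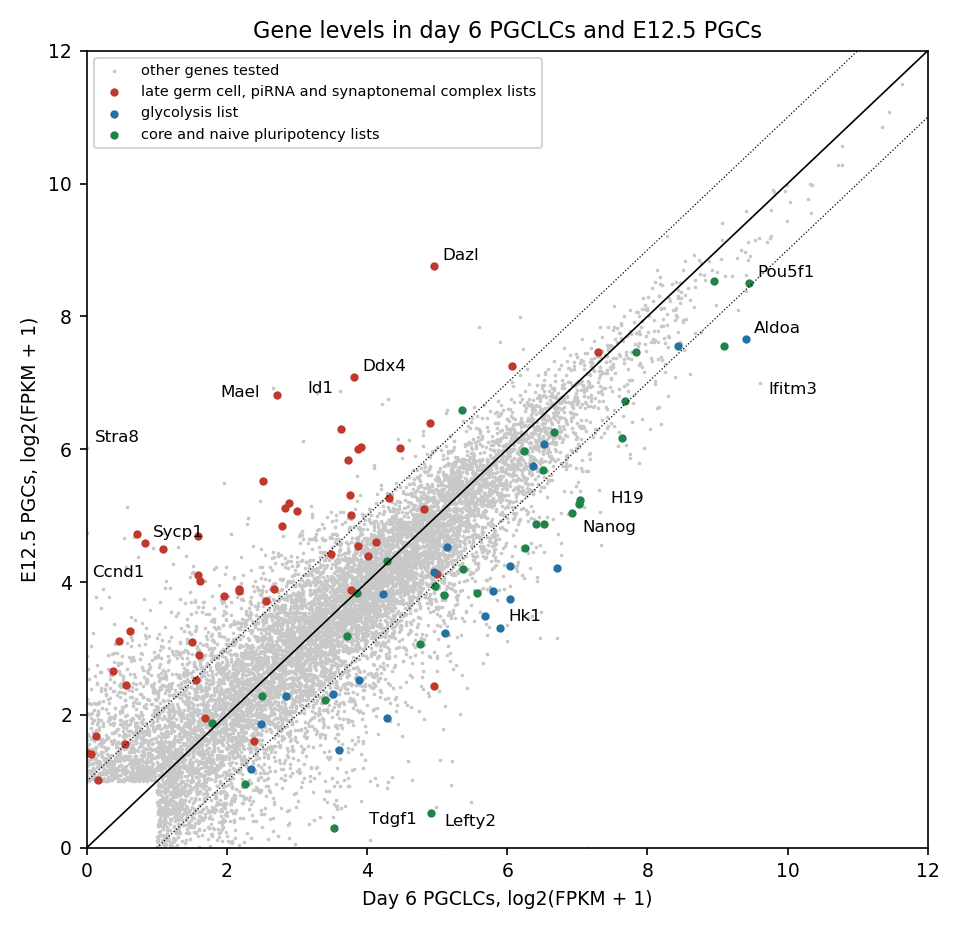
Each point is a gene tested, with its level in day 6 PGCLCs across and its level in E12.5 PGCs up, both as log2(FPKM + 1); the solid line marks equal levels and the dotted lines 2-fold. Germ cell, piRNA and synaptonemal complex genes (red) lie mostly above the upper dotted line, with Dazl at 30.1 FPKM in day 6 PGCLCs and 432 FPKM in E12.5 PGCs, and glycolysis and pluripotency genes (blue, green) mostly below the diagonal.

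The clearest shortfall of day 6 PGCLCs was in genes of gonadal germ cells. Dazl, an RNA-binding protein that licenses germ cells for sexual development, had 30.1 FPKM in day 6 PGCLCs and 432 FPKM in E12.5 PGCs (log2 difference -3.80). Ddx4, the germ cell helicase also called Vasa, had 13.1 FPKM in day 6 PGCLCs and 135 FPKM in E12.5 PGCs (-3.27). Tex101, a germ cell surface protein, had 0.651 FPKM in day 6 PGCLCs and 25.4 FPKM in E12.5 PGCs (-4.00), and Slc25a31, a germ cell ADP/ATP carrier, had 4.72 FPKM in day 6 PGCLCs and 44.8 FPKM in E12.5 PGCs (-3.00). Dazl and Ddx4 were already detected at day 6, above 7.86 and 0.812 FPKM in ES cells, whereas Tex101 was near 0.

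Of 24 late germ cell genes 20 were tested, and 17 of the 20 were lower and 0 higher in day 6 PGCLCs, beside 8.88% lower over all genes. Their median difference was -1.71, beside 0.06 over all genes. Of these 20, 5 passed the filter through E12.5 PGCs only, and among the 15 at 1 FPKM or more in both groups 12 were lower. The members within 2-fold were Rnf17, a tudor protein (16.5 FPKM in day 6 PGCLCs, 23.2 FPKM in E12.5 PGCs), Rpl10l, a testis ribosomal protein copy (27.1 FPKM in day 6 PGCLCs, 33.3 FPKM in E12.5 PGCs), and D1Pas1, a helicase related to Ddx3x (4.25 FPKM in day 6 PGCLCs, 2.04 FPKM in E12.5 PGCs). Rpl10l and D1Pas1 are retrogenes with near-identical relatives, so their values are uncertain. Nxf2, Tex13a, Magea10 and Ctcfl were under the filter. In the separate comparison of reaggregated PGCLCs with E12.5 PGCs, which shares the E12.5 values, 6 of 20 members were lower and 0 higher, beside 0.989% lower, 1.75% higher and 2.74% either way over all genes there.

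Small RNAs bound by Piwi proteins (piRNAs) silence transposons in the germ line, and most genes of their pathway were lower in day 6 PGCLCs. Mael, a piRNA factor of the nuage, the germ cell's RNA-rich granules, had 5.57 FPKM in day 6 PGCLCs and 112 FPKM in E12.5 PGCs (-4.11). Tdrd7, a tudor protein of germ granules, had 2.00 FPKM in day 6 PGCLCs and 16.3 FPKM in E12.5 PGCs (-2.53). Tdrd1, another tudor protein, had 0.299 FPKM in day 6 PGCLCs and 5.33 FPKM in E12.5 PGCs (-2.28). Of the list's members Mael differed most, and it stood at 28.9 FPKM in reaggregated PGCLCs, between day 6 PGCLCs and E12.5 PGCs. Of 24 members 21 were tested, with 13 lower, 1 higher and a median of -1.25. Among the 18 at 1 FPKM or more in both groups, 11 were lower. Morc1, a repressor of transposons in the male germ line, was the member that was higher, with 30.0 FPKM in day 6 PGCLCs and 4.40 FPKM in E12.5 PGCs (2.52), and 46.2 FPKM in ES cells. Tdrd5, which acts in the same granules, was within 2-fold, with 15.1 FPKM in day 6 PGCLCs and 19.9 FPKM in E12.5 PGCs, and so was Tdrd12, with 30.9 FPKM in day 6 PGCLCs and 16.4 FPKM in E12.5 PGCs.

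Many meiosis genes were lower as well. Stra8, the gatekeeper of meiotic entry, was listed at 0 in day 6 PGCLCs and had 63.6 FPKM in E12.5 PGCs, 66.7 FPKM in reaggregated PGCLCs and 0.267 FPKM in ES cells. Sycp1, the transverse filament of the synaptonemal complex that holds paired chromosomes together, had 0.777 FPKM in day 6 PGCLCs and 23.1 FPKM in E12.5 PGCs (-3.76). Tex12, of its central element, had 1.12 FPKM in day 6 PGCLCs and 21.6 FPKM in E12.5 PGCs (-3.41). Day 6 levels of axis genes varied. Hormad1, which marks unpaired axes, had 2.02 FPKM in day 6 PGCLCs and 24.9 FPKM in E12.5 PGCs (-3.10), with 10.8 FPKM in ES cells. Smc1b, a meiotic cohesin, had 11.3 FPKM in day 6 PGCLCs and 78.1 FPKM in E12.5 PGCs (-2.68), and Sycp3, of the axis, had 6.42 FPKM in day 6 PGCLCs and 35.6 FPKM in E12.5 PGCs (-2.30). Its partner Sycp2 had 0.474 FPKM in day 6 PGCLCs and 4.45 FPKM in E12.5 PGCs (-1.89).

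Of 16 tested genes of the synaptonemal complex and axis, 12 were lower and 0 higher, with a median of -2.00, the lowest of the lists with at least 7 tested members. Among the 13 at 1 FPKM or more in both groups, 9 were lower. Syce2, of the central element, was within 2-fold at 156 FPKM in day 6 PGCLCs and 176 FPKM in E12.5 PGCs. For reaggregated PGCLCs against E12.5 PGCs, 2 of 16 were lower. Genes of recombination and pairing were more mixed, with 9 of 20 lower, 0 higher and a median of -0.92, and 7 of the 20 passed through E12.5 PGCs only. Gm1564, whose current name is Meioc and which sustains meiotic prophase, had 0.148 FPKM in day 6 PGCLCs and 11.2 FPKM in E12.5 PGCs (-3.41). Tex11, an X-linked crossover factor, had 0.533 FPKM in day 6 PGCLCs and 8.64 FPKM in E12.5 PGCs (-2.65), and Dmc1, the meiotic strand exchange protein, had 4.56 FPKM in day 6 PGCLCs and 17.7 FPKM in E12.5 PGCs (-1.75). Their partners Psmc3ip and Mnd1, which assist strand exchange, were within 2-fold, at 32.7 and 12.4 FPKM in day 6 PGCLCs and 20.6 and 9.59 FPKM in E12.5 PGCs.

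**Figure D2:**
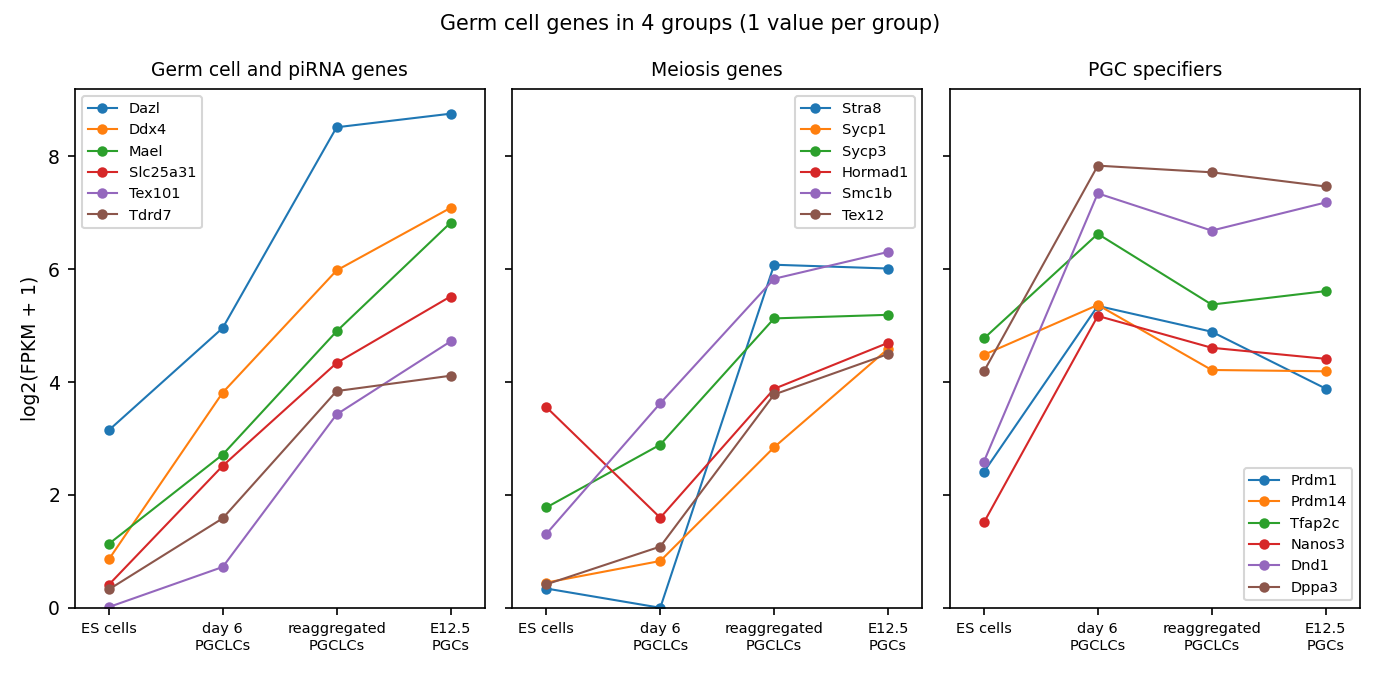
Levels of 18 germ cell genes as log2(FPKM + 1) in ES cells, day 6 PGCLCs, reaggregated PGCLCs and E12.5 PGCs, 1 value per group; lines only join the values of a gene. Germ cell, piRNA and meiosis genes are lower in day 6 PGCLCs than in E12.5 PGCs, as for Stra8, listed at 0 in day 6 PGCLCs and at 63.6 FPKM in E12.5 PGCs. By the deposited values the 6 early PGC genes in the right panel are above the E12.5 level in day 6 PGCLCs. Nanos3, Dnd1 and Dppa3 are so by less than 2-fold.

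The promoters of tested members of the germ cell and meiosis lists, lower or not, were read for a short motif. It is the E-box CACGTG, which germ cell genes are known to share, a palindrome bound by basic helix-loop-helix proteins such as MAX and its partners. The 250 bases before the transcription start were taken from RefSeq on GRCm38.p6. The 6 promoters shown are chosen examples, each of a gene lower past 2-fold whose promoter holds the E-box. Other lower genes, such as Stk31, Taf7l and Tex12, hold it too and are not shown. Sequences run 5′ to 3′ on the gene's strand. Capitals mark CACGTG and, searched on both strands, the E2F-type motif GCGGGA (or TCCCGC). The promoters shown are Ddx4 (chr13:112652311-112652560, minus strand), Mael (chr1:166238745-166238994, minus), Sycp3 (chr10:88459337-88459586, plus), Sycp1 (chr3:102936101-102936350, minus), Hormad1 (chr3:95559427-95559676, plus) and Slc25a31 (chr3:40708621-40708870, plus).
Ddx4: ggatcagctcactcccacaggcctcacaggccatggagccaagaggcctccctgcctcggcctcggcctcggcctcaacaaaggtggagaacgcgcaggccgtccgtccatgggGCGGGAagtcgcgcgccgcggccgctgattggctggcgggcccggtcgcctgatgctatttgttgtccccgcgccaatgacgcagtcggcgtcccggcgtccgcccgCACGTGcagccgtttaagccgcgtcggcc
Mael: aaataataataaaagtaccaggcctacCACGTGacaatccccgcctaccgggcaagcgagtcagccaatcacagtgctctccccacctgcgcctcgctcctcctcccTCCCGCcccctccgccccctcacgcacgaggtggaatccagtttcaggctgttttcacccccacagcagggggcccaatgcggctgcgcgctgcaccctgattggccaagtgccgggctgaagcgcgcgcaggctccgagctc
Sycp3: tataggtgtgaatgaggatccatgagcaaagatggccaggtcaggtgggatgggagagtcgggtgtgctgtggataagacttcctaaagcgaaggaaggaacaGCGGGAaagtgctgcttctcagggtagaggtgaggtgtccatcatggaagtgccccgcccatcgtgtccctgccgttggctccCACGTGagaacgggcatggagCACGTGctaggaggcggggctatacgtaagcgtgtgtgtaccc
Sycp1: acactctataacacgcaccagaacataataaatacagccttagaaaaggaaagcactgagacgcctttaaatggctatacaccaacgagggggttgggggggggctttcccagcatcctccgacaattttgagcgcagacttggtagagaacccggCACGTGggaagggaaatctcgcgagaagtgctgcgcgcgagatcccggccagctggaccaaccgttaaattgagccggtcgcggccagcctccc
Hormad1: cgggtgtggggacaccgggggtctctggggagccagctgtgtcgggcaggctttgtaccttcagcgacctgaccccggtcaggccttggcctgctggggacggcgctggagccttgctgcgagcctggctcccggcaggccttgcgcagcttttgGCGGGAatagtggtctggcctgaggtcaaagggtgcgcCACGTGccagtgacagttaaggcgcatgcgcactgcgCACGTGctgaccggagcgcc
Slc25a31: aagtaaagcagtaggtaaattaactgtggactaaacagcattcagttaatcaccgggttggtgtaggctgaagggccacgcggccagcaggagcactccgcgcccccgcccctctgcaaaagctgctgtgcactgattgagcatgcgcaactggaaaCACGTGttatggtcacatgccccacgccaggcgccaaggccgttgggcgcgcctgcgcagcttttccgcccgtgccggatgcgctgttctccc

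Counted from the start, the E-box begins at -29 in Ddx4, -223 in Mael, -94 in Sycp1 and -93 in Slc25a31, and Sycp3 (-64 and -43) and Hormad1 (-57 and -20) hold 2 copies each. The E-box was in 7 of 16 late germ cell promoters found in the table (43.8%), 7 of 16 of the piRNA list (43.8%) and 8 of 16 of the synaptonemal complex and axis (50%). These shares cover all tested members, lower or not. Members within 2-fold held it too: Tdrd9 in the piRNA list, and Syce2, Six6os1 and Rec114 in the synaptonemal complex and axis. The E-box was in 10.3% of the 9313 tested genes with a promoter and in 6.86% of all 27025 promoters. The recombination list differed in makeup, with the E-box in 0 of 14 promoters and the E2F-type motif in 9 of 14 (64.3%), beside 36% of tested genes. Lower genes as a whole did not hold the E-box more often than the rest, at 8.91% of lower genes, 11.5% of higher genes and 10.3% of genes within 2-fold. A match is a description of letters in this window, not a binding site, and these lists share members.

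The 3 transcription factors known for specifying PGCs were higher in day 6 PGCLCs, unlike the late genes. Prdm1, the repressor that starts the PGC programme, had 39.8 FPKM in day 6 PGCLCs and 13.8 FPKM in E12.5 PGCs (1.46). Prdm14, its partner in specification, had 40.3 FPKM in day 6 PGCLCs and 17.3 FPKM in E12.5 PGCs (1.18), and Tfap2c, the third of the trio, had 97.8 FPKM in day 6 PGCLCs and 47.9 FPKM in E12.5 PGCs (1.01). Ifitm3 (fragilis), an interferon-induced membrane protein of early PGCs, had 779 FPKM in day 6 PGCLCs and 127 FPKM in E12.5 PGCs (2.61). Of 22 tested members 6 were higher and 2 lower, with a median of 0.50, beside 10.6% higher over all genes. With equal sums 2 were higher, Prdm1 and Ifitm3, and Prdm14, Tfap2c, Rhox6 and Ifitm1 were within 2-fold. The lower members were Lin28a, an inhibitor of let-7 processing, with 39.8 FPKM in day 6 PGCLCs and 95.7 FPKM in E12.5 PGCs, and Fgf8, a growth factor, with 0.0122 FPKM in day 6 PGCLCs and 2.29 FPKM in E12.5 PGCs. Kit, the receptor that keeps PGCs alive, was within 2-fold at 84.0 FPKM in day 6 PGCLCs and 56.5 FPKM in E12.5 PGCs.

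Many genes of the retinoic acid, BMP and WNT lists were lower, and the source of these signals was not tested. Crabp1, a retinoic acid-binding protein, had 13.5 FPKM in day 6 PGCLCs and 47.4 FPKM in E12.5 PGCs (-1.74). Its relative Crabp2 had 3.15 FPKM in day 6 PGCLCs and 10.4 FPKM in E12.5 PGCs, and the receptor Rara had 4.81 FPKM in day 6 PGCLCs and 15.5 FPKM in E12.5 PGCs (-1.51). In ES cells Crabp1, Crabp2 and Rara had 15.1, 1.23 and 13.5 FPKM, so Crabp1 at day 6 was close to its ES cell level and Rara below it. Of 11 tested members of the retinoic acid list, 6 were lower (54.5%, beside 8.88% over all genes) and 0 higher. Of the 8 at 1 FPKM in both groups 5 were lower, beside 5.77% over all such genes. Of the list's 23 members 12 were under the filter, among them the degrading enzymes Cyp26a1, Cyp26b1 and Cyp26c1.

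Among BMP targets, Id1, an inhibitor of basic helix-loop-helix factors, had 11.3 FPKM in day 6 PGCLCs and 117 FPKM in E12.5 PGCs (-3.26). Msx1, a homeobox gene, had 1.13 FPKM in day 6 PGCLCs and 25.8 FPKM in E12.5 PGCs (-3.65), and Gata2, a zinc finger factor, had 20.7 FPKM in day 6 PGCLCs and 70.4 FPKM in E12.5 PGCs (-1.72). Not every target was low at day 6. Id3 had 196 FPKM in day 6 PGCLCs and 232 FPKM in E12.5 PGCs, and Msx2 had 26.7 FPKM in day 6 PGCLCs and 24.5 FPKM in E12.5 PGCs, both within 2-fold. In all, 6 of 12 tested members were lower (50%, beside 8.88% over all genes) and 1 higher (8.33%, beside 10.6%). The higher member was the inhibitor Smad7, with 21.8 FPKM in day 6 PGCLCs and 7.15 FPKM in E12.5 PGCs. WNT response genes had 6 of 10 lower (60%, beside 8.88% over all genes) and 1 higher (10%, beside 10.6%). The higher member was Lef1, within 2-fold with equal sums. The list's median was -1.31, and 3 of the 10 passed through E12.5 PGCs only. Sp5, a direct target, had 0.617 FPKM in day 6 PGCLCs and 9.73 FPKM in E12.5 PGCs (-2.73), with 0.828 FPKM in reaggregated PGCLCs, where 7 of 10 were lower than in E12.5 PGCs. Mesoderm and posterior genes had 4 of 9 tested members lower (44.4%, beside 8.88% over all genes) and 0 higher. The gene T, the mark of mesoderm, was under the filter at 0.0798 FPKM in day 6 PGCLCs and 0.372 FPKM in E12.5 PGCs.

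Genes tied to germ cell sex were mostly lower in day 6 PGCLCs too. Of 17 tested, 12 were lower (70.6%, beside 8.88% over all genes) and 3 higher (17.6%, beside 10.6%), and 6 of the 17 passed through E12.5 PGCs only. Zglp1, a GATA-like factor of the oogenic programme, had 2.91 FPKM in day 6 PGCLCs and 43.8 FPKM in E12.5 PGCs (-3.52). Sohlh2, a germ cell helix-loop-helix factor, had 7.50 FPKM in day 6 PGCLCs and 68.6 FPKM in E12.5 PGCs (-3.03). The male germ cell gene Nanos2 was under the filter, at 0.0157 FPKM in day 6 PGCLCs and 0.0330 FPKM in E12.5 PGCs. The members that were higher were Tdgf1, Lefty1 and Nodal of the Nodal pathway. Growing oocyte genes had 3 of 13 lower and 2 higher (Oosp1 and H1foo, the second within 2-fold with equal sums), beside 8.88% lower and 10.6% higher over all genes.

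Nodal signalling, which maintains pluripotency in the epiblast, was the pathway of some of the genes with the greatest differences upward. Tdgf1 (Cripto), the Nodal co-receptor, had 29.2 FPKM in day 6 PGCLCs and 0.431 FPKM in E12.5 PGCs (4.40). Lefty2, a feedback inhibitor that Nodal induces, had 30.5 FPKM in day 6 PGCLCs and 0.527 FPKM in E12.5 PGCs (4.37), and Lefty1 had 11.4 FPKM in day 6 PGCLCs and 0.522 FPKM in E12.5 PGCs (3.02). Nodal itself had 11.3 FPKM in day 6 PGCLCs and 1.54 FPKM in E12.5 PGCs (2.27). Ligand, co-receptor and inhibitors were all below their ES cell levels of 27.3 FPKM (Nodal), 122 FPKM (Tdgf1), 107 FPKM (Lefty2) and 22.8 FPKM (Lefty1). The receptors and transducers were within 2-fold, for example Acvr1b with 14.8 FPKM in day 6 PGCLCs and 12.1 FPKM in E12.5 PGCs and Foxh1 with 64.4 FPKM in day 6 PGCLCs and 62.2 FPKM in E12.5 PGCs. Of 16 tested members 4 were higher (25%, beside 10.6% over all genes) and 1 lower (6.25%, beside 8.88%). The lower member was the convertase Furin, with 13.3 FPKM in day 6 PGCLCs and 33.4 FPKM in E12.5 PGCs. Tdgf1, Lefty1 and Lefty2 passed the filter through day 6 PGCLCs only. Among the 12 members at 1 FPKM in both groups 1 was higher, Nodal, and 1 lower. Over all such genes 9.21% were higher and 5.77% lower.

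Many pluripotency genes were higher in day 6 PGCLCs. Nanog had 120 FPKM in day 6 PGCLCs and 31.9 FPKM in E12.5 PGCs (1.88). Klf2, a naive pluripotency factor, had 130 FPKM in day 6 PGCLCs and 36.6 FPKM in E12.5 PGCs (1.80), and Zfp42 (Rex1) had 46.6 FPKM in day 6 PGCLCs and 13.3 FPKM in E12.5 PGCs (1.73). Pou5f1 (Oct4) and Sox2 stood just inside 2-fold, at 699 and 203 FPKM in day 6 PGCLCs and 363 and 105 FPKM in E12.5 PGCs (0.94 and 0.95). Of 16 tested naive genes 11 were higher and 0 lower, with a median of 1.42, beside 10.6% higher over all genes, and 9 of the 14 at 1 FPKM in both groups were higher. Of 16 core and general pluripotency genes 8 were higher and 1 lower (Lin28a), with a median of 0.99. Klf4 was within 2-fold at 2.45 FPKM in day 6 PGCLCs and 2.70 FPKM in E12.5 PGCs, against 122 FPKM in ES cells, and Fgf4 and Tbx3 were under the filter.

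Socs3, a feedback inhibitor of the LIF and STAT3 pathway, had 10.6 FPKM in day 6 PGCLCs and 0.231 FPKM in E12.5 PGCs (3.24), and Stat3 had 9.53 FPKM in day 6 PGCLCs and 3.69 FPKM in E12.5 PGCs (1.17). Most primed epiblast genes were low in both groups, with 7 of 14 under the filter and 5 of the other 7 passing through E12.5 PGCs only. Of the 7 tested, 4 were lower and 1 higher. The higher member was Lef1, with 53.3 FPKM in day 6 PGCLCs and 23.3 FPKM in E12.5 PGCs (1.16, within 2-fold with equal sums). Sfrp2, a WNT antagonist, had 0.545 FPKM in day 6 PGCLCs and 10.2 FPKM in E12.5 PGCs (-2.85). Feedback genes of FGF and ERK signalling leaned upward, with 6 of 18 higher (33.3%, beside 10.6% over all genes) and 2 lower (11.1%, beside 8.88%). Ier3, an immediate early gene, led with 20.3 FPKM in day 6 PGCLCs and 3.17 FPKM in E12.5 PGCs (2.35). Spry2, an inhibitor of the pathway, had 26.9 FPKM in day 6 PGCLCs and 7.61 FPKM in E12.5 PGCs (1.70). With equal sums 2 of the 18 were higher, Ier3 and Spry2. Dusp9, a MAP kinase phosphatase, ran the other way, with 5.29 FPKM in day 6 PGCLCs and 121 FPKM in E12.5 PGCs (-4.27).

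**Figure D3:**
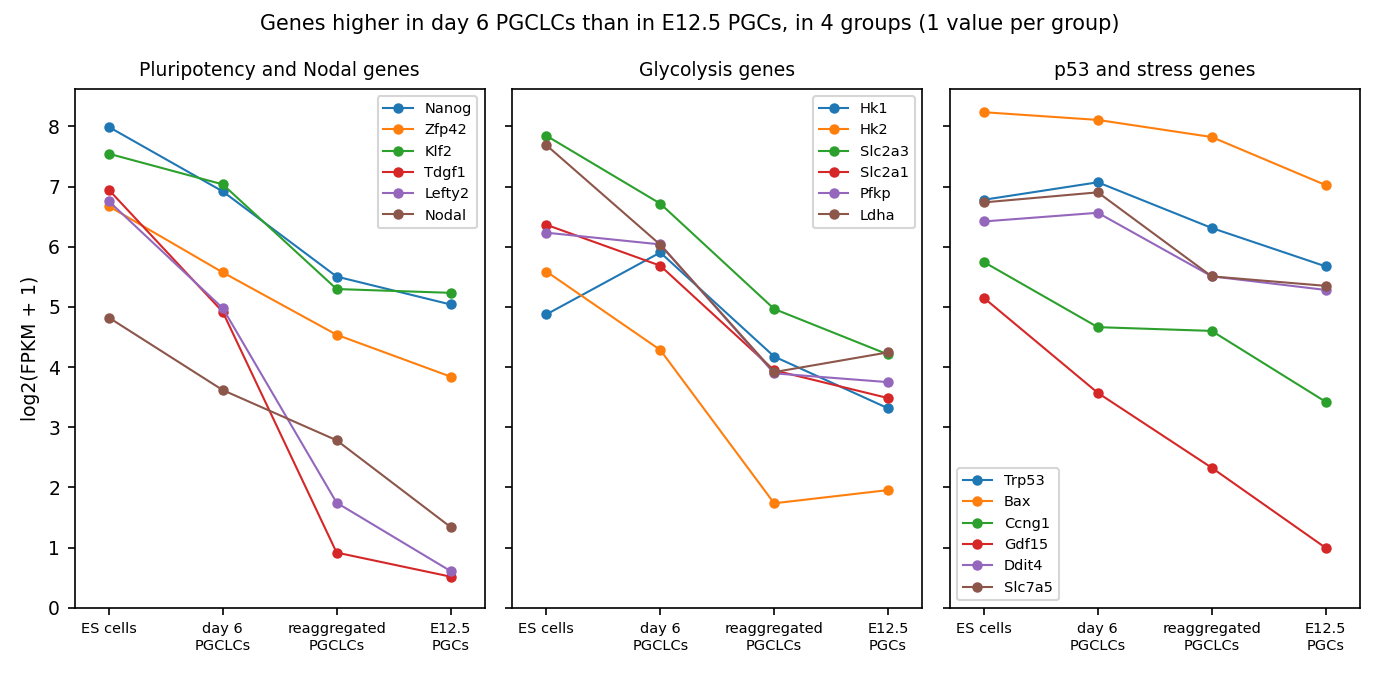
Levels of 18 genes higher in day 6 PGCLCs as log2(FPKM + 1) in ES cells, day 6 PGCLCs, reaggregated PGCLCs and E12.5 PGCs, 1 value per group; lines only join the values of a gene. Nodal pathway genes such as Tdgf1 are near 0 in E12.5 PGCs (29.2 FPKM in day 6 PGCLCs, 0.431 FPKM in E12.5 PGCs), and of the glycolysis genes Slc2a3 is at 104 FPKM in day 6 PGCLCs, 30.2 FPKM in reaggregated PGCLCs and 17.5 FPKM in E12.5 PGCs.

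Most tested glycolysis genes were higher in day 6 PGCLCs, among them genes of glucose uptake and lactate export. The glucose transporters Slc2a3 and Slc2a1 had 104 and 50.4 FPKM in day 6 PGCLCs and 17.5 and 10.2 FPKM in E12.5 PGCs (2.51 for Slc2a3). The hexokinases Hk1 and Hk2, which trap glucose in the cell, had 58.9 and 18.5 FPKM in day 6 PGCLCs and 8.95 and 2.88 FPKM in E12.5 PGCs (2.59 and 2.33). Pfkp, a phosphofructokinase, had 64.7 FPKM in day 6 PGCLCs and 12.4 FPKM in E12.5 PGCs (2.29). In absolute level Aldoa, which splits the sugar, was the highest of the list, with 676 FPKM in day 6 PGCLCs and 201 FPKM in E12.5 PGCs (1.74). Of 21 tested members 13 were higher (61.9%, beside 10.6% over all genes) and 0 lower, with a median of 1.35. All 21 had at least 1 FPKM in both groups. Against the same E12.5 values, reaggregated PGCLCs had 0 of 21 members higher and 0 lower, and a median of -0.12. Pkm and Pgam1 were within 2-fold, at 345 and 4.61 FPKM in day 6 PGCLCs and 187 and 2.65 FPKM in E12.5 PGCs. Several of these enzymes have near-identical processed copies in the genome, so their values are uncertain, and Gapdh and Eno1 were under the filter.

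Of 69 nuclear genes of oxidative phosphorylation, 0 were higher and 0 lower past 2-fold, with a median of -0.04. Cholesterol synthesis had 2 of 22 higher (9.09%, beside 10.6% over all genes) and 0 lower. They were Ebp with 31.2 FPKM in day 6 PGCLCs and 11.1 FPKM in E12.5 PGCs and Mvd with 54.8 FPKM in day 6 PGCLCs and 20.2 FPKM in E12.5 PGCs. Ribosomal protein genes, many with near-identical copies, had 2 of 56 higher and 1 lower.

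**Figure D4:**
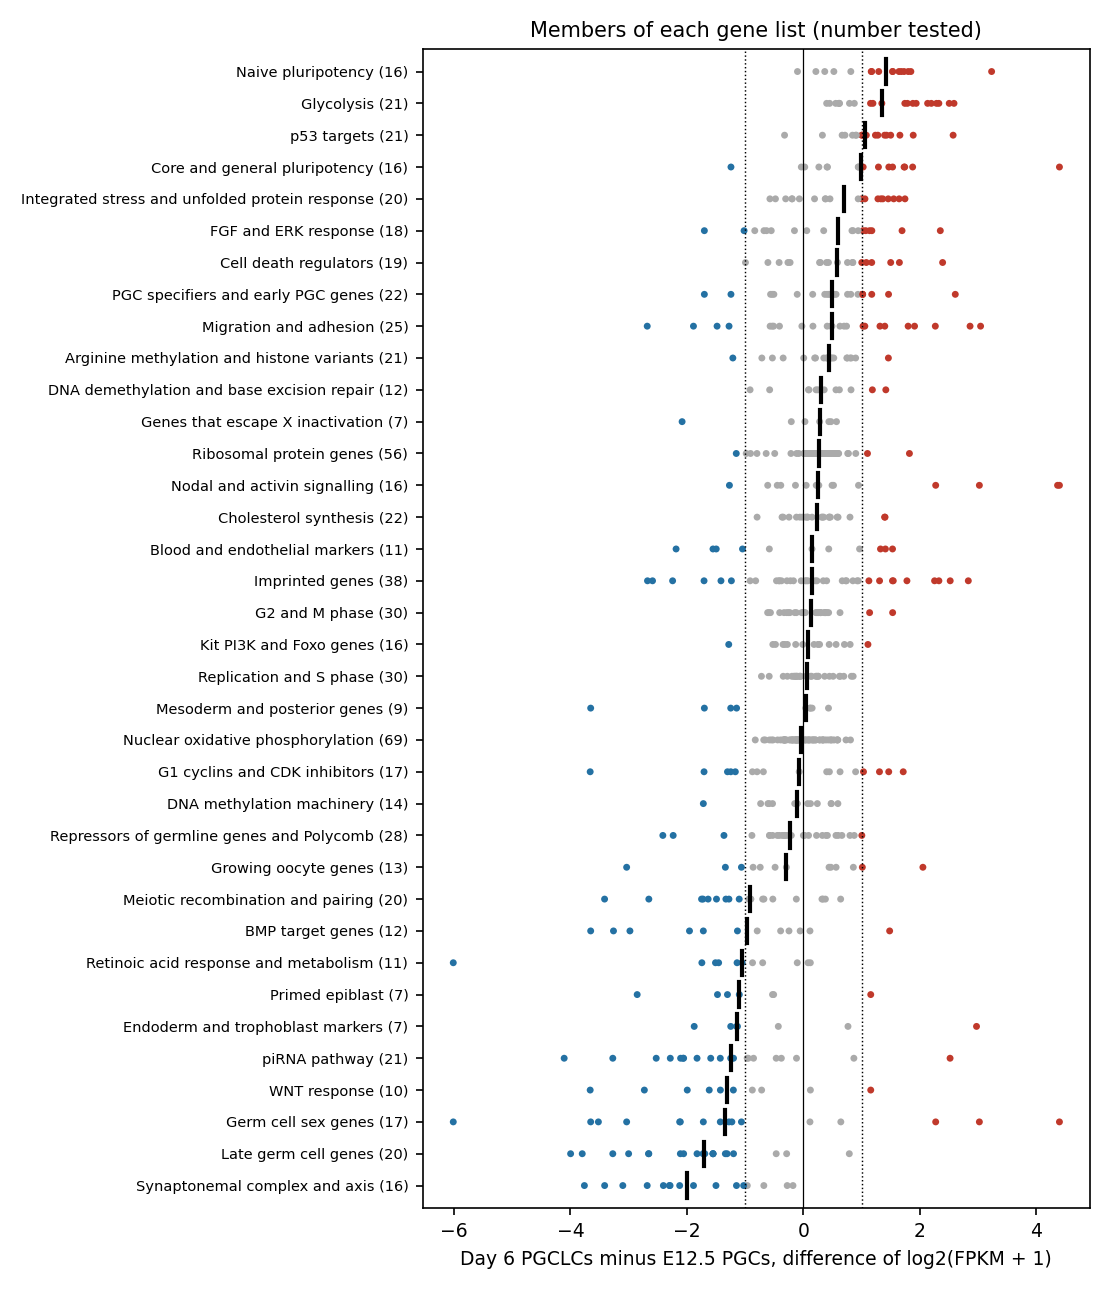
Each row is a gene list with at least 7 tested members, each point a member's difference of log2(FPKM + 1), day 6 PGCLCs minus E12.5 PGCs, red and blue past 2-fold, and the black bar the list's median. Medians run from -2.00 for the synaptonemal complex and axis to 1.42 for naive pluripotency, beside 0.06 over all genes.

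Many targets of the stress sensor p53 were higher in day 6 PGCLCs. Gdf15, a stress-induced secreted factor, had 10.9 FPKM in day 6 PGCLCs and 0.996 FPKM in E12.5 PGCs (2.57). Trp53, the gene of p53 itself, had 133 FPKM in day 6 PGCLCs and 50.0 FPKM in E12.5 PGCs (1.40), and Eda2r, a receptor of the TNF family, had 9.05 FPKM in day 6 PGCLCs and 2.18 FPKM in E12.5 PGCs (1.66). Of 21 tested members 14 were higher and 0 lower, with a median of 1.05, beside 10.6% higher over all genes. Many stood close to 2-fold, and 8 of the 21 were higher with equal sums, with a median of 0.88. Among the 19 at 1 FPKM in both groups, 12 were higher. Mdm2, the ligase that degrades p53, was within 2-fold at 49.9 FPKM in day 6 PGCLCs and 39.6 FPKM in E12.5 PGCs, and so was Cdkn1a (p21), at 40.9 FPKM in day 6 PGCLCs and 21.5 FPKM in E12.5 PGCs. Set against ES cells instead, day 6 PGCLCs had 8 of 21 members lower and 1 higher, beside 14.6% lower, 11.7% higher and 26.4% either way over all genes. Genes of the integrated stress response had 9 of 20 higher and 0 lower, among them Ddit3 (CHOP), with 11.2 FPKM in day 6 PGCLCs and 2.89 FPKM in E12.5 PGCs (1.65), and the amino acid transporter Slc7a5, with 119 FPKM in day 6 PGCLCs and 39.8 FPKM in E12.5 PGCs (1.55). Chac1, Phgdh and Slc7a3 of the 9 passed through day 6 PGCLCs only, and among the 17 members at 1 FPKM in both groups 6 were higher, with a median of 0.38. Against ES cells, day 6 PGCLCs had 15 of 21 tested members of this list lower and 0 higher, with a median of -1.32. The list's chaperones Hspa5 and Hsp90b1 were within 2-fold, at 122 and 241 FPKM in day 6 PGCLCs and 151 and 276 FPKM in E12.5 PGCs.

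Among cell death regulators 6 of 19 were higher (31.6%, beside 10.6% over all genes) and 0 lower. Of the 17 at 1 FPKM in both groups 4 were higher, beside 9.21% over all such genes. The pore-forming Bak1 had 8.40 FPKM in day 6 PGCLCs and 0.788 FPKM in E12.5 PGCs (2.39). Bad, a sensitizer of mitochondrial death, had 45.3 FPKM in day 6 PGCLCs and 13.7 FPKM in E12.5 PGCs (1.65), and Bax had 275 FPKM in day 6 PGCLCs and 129 FPKM in E12.5 PGCs (1.08, within 2-fold with equal sums). Their antagonists Bcl2l1 and Mcl1 were within 2-fold, at 12.7 and 44.2 FPKM in day 6 PGCLCs and 17.3 and 36.2 FPKM in E12.5 PGCs. Bax, Bbc3 and Pmaip1 belong to the p53 list as well.

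Genes of cell division were close between the groups, apart from the entry to the cycle. Of 30 replication genes 0 were past 2-fold, and the median of 0.06 changed sign with equal sums, after centring on the median and after quantile normalization. Of 30 genes of G2 and M phase, 2 were higher (6.67%, beside 10.6% over all genes) and 0 lower. They were Cdc25c with 18.5 FPKM in day 6 PGCLCs and 5.73 FPKM in E12.5 PGCs (1.53) and Aurkb (within 2-fold with equal sums). In G1 the cyclins differed. Ccnd1 had 0.173 FPKM in day 6 PGCLCs and 13.8 FPKM in E12.5 PGCs (-3.66), and 44.3 FPKM in ES cells. Ccnd3 had 242 FPKM in day 6 PGCLCs and 86.9 FPKM in E12.5 PGCs (1.47), and its kinase partner Cdk4 had 336 FPKM in day 6 PGCLCs and 135 FPKM in E12.5 PGCs (1.31). Of the inhibitors, Cdkn1b (p27) was higher, with 18.1 FPKM in day 6 PGCLCs and 4.82 FPKM in E12.5 PGCs (1.72), and Cdkn1c (p57) lower, with 7.39 FPKM in day 6 PGCLCs and 26.3 FPKM in E12.5 PGCs (-1.70).

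The machinery of DNA methylation was low where PGCs are known to lack it, and close between the groups. Dnmt3b, a de novo methyltransferase, had 0.864 FPKM in day 6 PGCLCs and 1.69 FPKM in E12.5 PGCs, against 21.7 FPKM in ES cells. Uhrf1, which guides maintenance methylation, had 7.26 FPKM in day 6 PGCLCs and 11.4 FPKM in E12.5 PGCs, against 123 FPKM in ES cells. Of 14 tested members 1 was lower and 0 higher, the remodeller Hells, with 58.5 FPKM in day 6 PGCLCs and 195 FPKM in E12.5 PGCs (-1.72). Tet1, which oxidizes methylcytosine, was within 2-fold at 31.5 FPKM in day 6 PGCLCs and 17.4 FPKM in E12.5 PGCs. In its list of demethylation and base excision repair 2 of 12 were higher (16.7%, beside 10.6% over all genes) and 0 lower. They were Gadd45a with 35.1 FPKM in day 6 PGCLCs and 14.9 FPKM in E12.5 PGCs (1.19) and Neil1 with 5.70 FPKM in day 6 PGCLCs and 1.51 FPKM in E12.5 PGCs (1.42). Arginine methylation and histone variant genes had 1 of 21 higher (4.76%), the demethylase Kdm6b, and 1 lower (4.76%), the chromatin protein Hmga2. The shares over all genes were 10.6% and 8.88%. Polycomb genes and other repressors of germline genes were mostly within 2-fold, 24 of 28. The exceptions were Cbx8, with 0.311 FPKM in day 6 PGCLCs and 5.98 FPKM in E12.5 PGCs (-2.41), Bmi1 (Pcgf4), with 2.98 FPKM in day 6 PGCLCs and 17.7 FPKM in E12.5 PGCs (-2.24), Kdm2b, lower, and Cbx7, higher but within 2-fold with equal sums. Max, Mga and E2f6, of the Polycomb complex known to hold germline genes silent in ES cells, had 59.9, 14.8 and 12.1 FPKM in day 6 PGCLCs and 32.2, 22.6 and 11.9 FPKM in E12.5 PGCs.

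Imprinted genes, expressed from a single parental copy until PGCs erase the imprints, went both ways. Of 38 tested, 9 were higher (23.7%, beside 10.6% over all genes) and 6 lower (15.8%, beside 8.88%). Of the 31 at 1 FPKM in both groups 6 were higher and 3 lower, beside 9.21% and 5.77% over all such genes. H19, a maternally expressed RNA, had 159 FPKM in day 6 PGCLCs and 32.4 FPKM in E12.5 PGCs (2.26), and 0.0649 FPKM in ES cells. Impact had 37.7 FPKM in day 6 PGCLCs and 5.74 FPKM in E12.5 PGCs (2.52), and Meg3, a maternally expressed RNA, had 30.9 FPKM in day 6 PGCLCs and 5.34 FPKM in E12.5 PGCs (2.33). The lower members included neighbours of Cdkn1c, whose cluster lies on chromosome 7. Phlda2 had 47.5 FPKM in day 6 PGCLCs and 229 FPKM in E12.5 PGCs (-2.24), Slc22a18 had 0.868 FPKM in day 6 PGCLCs and 10.9 FPKM in E12.5 PGCs (-2.68), and Ascl2 had 0.237 FPKM in day 6 PGCLCs and 6.45 FPKM in E12.5 PGCs (-2.59). Igf2, which neighbours H19, was within 2-fold at 13.4 FPKM in day 6 PGCLCs and 12.9 FPKM in E12.5 PGCs. The strain cross differs between the groups, and the table does not separate parental alleles.

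The X chromosome had the lowest median difference of the 20 chromosomes compared, at -0.19 over 415 genes. Female PGCs reactivate their silent X chromosome around the time they reach the gonad. Of the 415 X-linked genes 75 (18.1%) were lower and 40 (9.64%) higher, and on the 19 autosomes the share lower ran between 5.38% and 12.1%. A large part of this came from low genes: 62 X-linked genes passed the filter through E12.5 PGCs only and 18 through day 6 PGCLCs only. Among the 335 at 1 FPKM or more in both groups the median was -0.04, beside 0.08 over all such genes, and 34 (10.1%) were lower, beside 5.77%. With a filter of 5 FPKM 36 X-linked genes were lower, and with a pseudocount of 5 it was 19. Cited1, a transcriptional co-activator, led the X-linked genes, with 0.487 FPKM in day 6 PGCLCs and 34.0 FPKM in E12.5 PGCs (-4.56), ahead of Dusp9. Of the 75, 4 are members of the germ cell and meiosis lists. These lists do not hold every germ line gene. Examples among the 75 but outside them are Scml2, Rhox1, Rhox10, Rhox13, Tex13 and several Rhox2 genes, such as Rhox2b and Rhox2d. Xist, the RNA that silences the X, was within 2-fold at 1.93 FPKM in day 6 PGCLCs and 0.678 FPKM in E12.5 PGCs, with 0.0538 FPKM in ES cells. Of 7 tested genes that escape silencing 1 was lower, Mid1, with 0.0751 FPKM in day 6 PGCLCs and 3.55 FPKM in E12.5 PGCs (-2.08), a gene that spans the pseudoautosomal boundary.

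**Figure D5:**
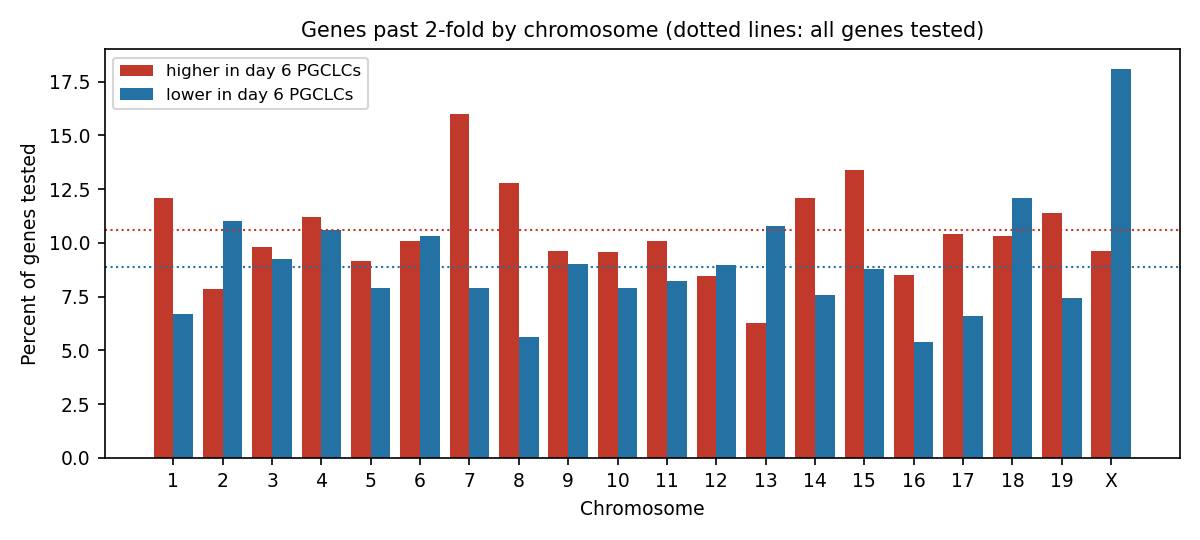
Percent of tested genes higher (red) and lower (blue) past 2-fold in day 6 PGCLCs against E12.5 PGCs on each autosome and the X; dotted lines are the shares over all genes, 10.6% and 8.88%. The X stands out with 18.1% lower, and chromosome 7 with 16% higher.

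Apart from Nodal genes, the genes with the greatest differences upward were of varied kinds. H2-Bl, a class I histocompatibility gene of a family of near-identical copies and so uncertain, had 43.7 FPKM in day 6 PGCLCs and 0.615 FPKM in E12.5 PGCs (4.79). Fabp3, a fatty acid-binding protein, had 35.8 FPKM in day 6 PGCLCs and 0.929 FPKM in E12.5 PGCs (4.26), and Bcl3, a regulator of NF-kappaB, had 15.5 FPKM in day 6 PGCLCs and 0.0894 FPKM in E12.5 PGCs (3.92). Lcp1, an actin-bundling protein, had 31.8 FPKM in day 6 PGCLCs and 1.49 FPKM in E12.5 PGCs (3.72). In ES cells Lcp1 had 0.159 FPKM, while Fabp3 and Bcl3 had 129 and 47.8 FPKM. Ly6g6e, Ap1m2, Slc17a9, Efcab10 and Renbp were also among the 12 highest, with differences between 3.31 and 3.90. Downward, beside the germ cell genes, stood Tcfl5, a basic helix-loop-helix factor, with 0.446 FPKM in day 6 PGCLCs and 24.5 FPKM in E12.5 PGCs (-4.14), Mxd4, a partner of MAX, with 0.596 FPKM in day 6 PGCLCs and 24.6 FPKM in E12.5 PGCs (-4.00), and Arhgdig with 0.470 FPKM in day 6 PGCLCs and 17.8 FPKM in E12.5 PGCs (-3.67).

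Genes of migration and cell contact had 9 of 25 higher (36%, beside 10.6% over all genes) and 4 lower (16%, beside 8.88%). Of the 22 at 1 FPKM in both groups 8 were higher and 2 lower, beside 9.21% and 5.77% over all such genes. Cxcr4, the receptor that guides migrating PGCs, had 31.7 FPKM in day 6 PGCLCs and 11.4 FPKM in E12.5 PGCs (1.40). Of the claudins of tight junctions, 3 were higher, Cldn7 with 80.7 FPKM in day 6 PGCLCs and 10.2 FPKM in E12.5 PGCs (2.86) and Cldn4 with 10.4 FPKM in day 6 PGCLCs and 0.384 FPKM in E12.5 PGCs (3.05), besides Cldn3. Cldn6 of the same list was within 2-fold, with 4.74 FPKM in day 6 PGCLCs and 7.17 FPKM in E12.5 PGCs. So was Cldn5, a member of another list, with 4.88 FPKM in day 6 PGCLCs and 4.30 FPKM in E12.5 PGCs. Fut4, a fucosyltransferase, was lower, with 0.00845 FPKM in day 6 PGCLCs and 5.47 FPKM in E12.5 PGCs (-2.68), and 0.0122 FPKM in ES cells. E-cadherin (Cdh1) was within 2-fold at 23.9 FPKM in day 6 PGCLCs and 17.0 FPKM in E12.5 PGCs.

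Most markers of other cells were under the filter in both groups, with exceptions given here, and their part in the differences above was not tested. Of 18 granulosa markers 3 passed the filter, and the list summed to 7.37 FPKM in day 6 PGCLCs and 11.1 FPKM in E12.5 PGCs; Foxl2 had 0.0540 FPKM in day 6 PGCLCs and 0.319 FPKM in E12.5 PGCs, and Nr5a1 was listed at 0 in day 6 PGCLCs and had 0.343 FPKM in E12.5 PGCs. Of 15 Sertoli and male gonad markers 2 passed, with sums of 33.7 FPKM in day 6 PGCLCs and 27.4 FPKM in E12.5 PGCs, most of it Aard, within 2-fold, and Insl3 (18.8 FPKM in day 6 PGCLCs, 6.36 FPKM in E12.5 PGCs), and Sox9 had 0.232 FPKM in day 6 PGCLCs and 0.00865 FPKM in E12.5 PGCs. Of stromal markers 6 of 19 passed and 5 were higher, each through day 6 PGCLCs only, with sums of 33.4 FPKM in day 6 PGCLCs and 16.2 FPKM in E12.5 PGCs. Col1a1 had 6.88 FPKM in day 6 PGCLCs and 0.0390 FPKM in E12.5 PGCs (2.92), and Acta2 had 3.75 FPKM in day 6 PGCLCs and 0.0611 FPKM in E12.5 PGCs (2.16). Lamc1, a laminin, was within 2-fold at 13.6 FPKM in day 6 PGCLCs and 13.0 FPKM in E12.5 PGCs.

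Blood and endothelial markers went both ways. The embryonic globin Hbb-y and Fcer1g, of white blood cells, were listed at 0 in day 6 PGCLCs and had 3.55 and 1.82 FPKM in E12.5 PGCs, while the endothelial genes Tek and Cdh5 had 2.02 and 2.77 FPKM in day 6 PGCLCs and 0.134 and 0.502 FPKM in E12.5 PGCs. The list had 11 of 19 members tested, with 3 higher and 4 lower, and among the 4 at 1 FPKM in both groups 1 was higher, Egfl7 (14.6 FPKM in day 6 PGCLCs, 4.40 FPKM in E12.5 PGCs). Tyrobp, of white blood cells, was within 2-fold at 2.96 FPKM in day 6 PGCLCs and 4.93 FPKM in E12.5 PGCs. The list gave sums of 117 FPKM in day 6 PGCLCs and 87.3 FPKM in E12.5 PGCs, most of it Pecam1, which PGCs express. Ptprc (CD45) was listed at 0 in day 6 PGCLCs and had 0.0753 FPKM in E12.5 PGCs. Endoderm and trophoblast markers had 7 of 18 tested, with 1 higher and 4 lower (Cubn, Hand1, Cdx2 and Gata3), and sums of 26.7 FPKM in day 6 PGCLCs and 37.2 FPKM in E12.5 PGCs. Cdx2, a trophoblast and posterior factor, had 8.07 FPKM in day 6 PGCLCs and 19.1 FPKM in E12.5 PGCs (-1.15). Krt7, a keratin of simple epithelia, had 10.8 FPKM in day 6 PGCLCs and 0.504 FPKM in E12.5 PGCs (2.98), and Afp was listed at 0 in day 6 PGCLCs and had 0.0225 FPKM in E12.5 PGCs. Of 14 neural and surface ectoderm markers 5 were tested, with sums of 15.1 FPKM in day 6 PGCLCs and 18.3 FPKM in E12.5 PGCs.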

How the data were processed

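Poly(A) RNA was sequenced with directional libraries on a HiSeq2000, per the labels' protocols. TopHat2, Bowtie2 2.0.13, Cufflinks and Cuffdiff 2.2.1 with the mouse genome mm10 are named in the submitters' processing notes. The deposited table holds FPKM, 1 pooled value per gene and group. The plan allowed for tests had values per sample been given; they were not, so none was run.

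Differences of log2(FPKM + 1) were computed over genes with at least 1 FPKM in either group, and called at 2-fold. The 41 lists hold 867 symbols, 853 found as written, 10 by another symbol and 4 not. The members and lists were chosen with earlier results of these data known. Named were the 12 highest and 12 lowest genes with at least 10 FPKM in the higher group, up to 5 called members per list and direction, members within 2-fold, and a fixed set; a few genes under this rule are not reported here. Chromosomes and promoters came from RefSeq by symbol, and a promoter counts once per motif. Alternatives were other pseudocounts, filters and scalings. The steps were tested on simulated data. Python 3.11.15, pandas 2.3.3, NumPy 2.4.6 and matplotlib 3.10.9 were used.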

Additional observations from a re-analysis of the deposited data

How the results depend on the processing

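With a pseudocount of 5, 552 genes were higher, 250 lower and 19 X-linked genes lower. With a filter of 5 FPKM, 593 genes were lower and 36 X-linked genes lower, and 939 were higher. By construction a larger pseudocount or filter removes calls of low genes. Other counts of higher and lower genes were 1632 and 1494 with a pseudocount of 0.1, 1155 and 804 with none, 1116 and 1067 after quantile normalization, and 1087 and 1161 after median centring. The median of the primed epiblast list reversed to 0.30 without a pseudocount (reported -1.10), where few members had 1 FPKM in both groups, and that of the endoderm and trophoblast list to 0.92 with the filter of 5 FPKM (reported -1.13), where fewer members were tested. Of 189 named genes 179 were past 2-fold, and 0 of these 179 reversed. A changed pseudocount or filter cannot change a sign. Median centring and equal sums shift values too little to reverse a gene past 2-fold. So the lack of reversals is no check of these genes. A change of sign was not counted for named genes within 2-fold. Calls ended for 57 with a pseudocount of 5, 15 with equal sums, 13 with quantile normalization and 6 with centring. Members higher with equal sums were 8 in place of 14 for p53 targets, 2 in place of 6 for PGC specifiers and 2 in place of 6 for FGF and ERK genes; with a pseudocount of 5, integrated stress genes higher were 3 in place of 9. No paired analysis was possible because the table holds 1 value per group, and leaving out replicates was not run for that reason. Depth is unknown, so values near 0 have no stated precision.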

Other observations

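The genes in this section were chosen after their values were seen and stand for no group of genes. St14, a membrane serine protease of epithelia, had 41.8 FPKM in day 6 PGCLCs and 4.30 FPKM in E12.5 PGCs, and Elf3, an epithelial ETS factor, had 28.3 FPKM in day 6 PGCLCs and 4.05 FPKM in E12.5 PGCs. Rab25, of apical recycling, had 15.4 FPKM in day 6 PGCLCs and 1.01 FPKM in E12.5 PGCs. Krt18, a keratin of simple epithelia, had 1.74 FPKM in day 6 PGCLCs and 9.12 FPKM in E12.5 PGCs. Vegfa, the growth factor of blood vessels, had 49.6 FPKM in day 6 PGCLCs and 5.90 FPKM in E12.5 PGCs, and the nuclear RNA Neat1 had 62.7 FPKM in day 6 PGCLCs and 7.68 FPKM in E12.5 PGCs. The lysosomal protease genes Ctsa and Ctsz had 88.0 and 84.6 FPKM in day 6 PGCLCs and 10.7 and 15.2 FPKM in E12.5 PGCs.

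Scml2, an X-linked Polycomb-related gene of the germ line, had 1.47 FPKM in day 6 PGCLCs and 22.1 FPKM in E12.5 PGCs. Kdm1b, a histone demethylase needed to set maternal imprints in oocytes, had 2.21 FPKM in day 6 PGCLCs and 15.2 FPKM in E12.5 PGCs. Yaf2, a partner of Polycomb complexes, had 2.00 FPKM in day 6 PGCLCs and 11.3 FPKM in E12.5 PGCs.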
